A study of Mus musculus with 11 samples.

Results

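The Dok genes encode adaptor proteins that are phosphorylated by tyrosine kinases, and the 6 described here are Dok1, Dok2, Dok3, Dok4, Dok5 and Dok7. They were selected by name, with DNA methylation read from 1 kb before to 1 kb after each gene, and they are 6 of 34318 genes with at least 1 measured C position in such a span. The family was picked because a region of Dok2 had a large difference between knockout and control LSK cells. Values of the LSK comparison are therefore given as a description without a test, and the GMP comparison carries the tests.

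Dok proteins have a pleckstrin homology domain that binds membrane lipids, a phosphotyrosine-binding domain that docks on activated receptors, and a tail whose phosphorylated tyrosines recruit partners such as RasGAP, the brake on Ras. Dok1, Dok2 and Dok3 are the members of blood cells and restrain cytokine and immune receptor signalling, and mice that lack Dok1 together with Dok2 develop a myeloproliferative disease. Dok4 and Dok5 are best known in neurons, downstream of the Ret and Trk receptors, and Dok7 activates the receptor kinase MuSK at the neuromuscular junction.

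Methylation was measured by enhanced reduced representation bisulfite sequencing, in which DNA is cut at CCGG by the enzyme MspI and bisulfite turns unmethylated C into T. All mice were C57BL/6 with floxed Dnmt3a, the gene of a de novo DNA methyltransferase, had been given poly(I:C) in 5 injections and were 12 months of age. Control animals lacked Cre and knockout animals carried Mx1-Cre, whose interferon-inducible promoter is active in blood and in other tissues. Bone marrow had been sorted for LSK (Lin- Sca1+ cKit+, a fraction that includes stem cells) and for GMP, the granulocyte-macrophage progenitors (Lin- Sca1- cKit+ CD34+ FcgR+). There were 3 control LSK libraries (1326, 1330, 1331), 3 knockout LSK libraries (1327, 1333, 1334), 2 control GMP libraries (346, 349) and 2 knockout GMP libraries (178, 179). For a further GMP library, 352, title and genotype field disagree on Cre, so no comparison includes it. Methylation data hold no expression values, so the sorted cell types could not be checked against marker genes. Whether libraries of a group came from separate animals is not stated, and a p-value here reflects only how libraries vary.

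The summed read coverage lay between 157.4 and 181.1 M (1e6 reads) in LSK and between 95.4 and 109.7 M in GMP, with medians of 85 to 103 and 50 to 59 reads per C position. The deletion was checked at 5 C positions of Dnmt3a (chromosome 12, 3903653 to 3904031, GRCm38), a stretch picked because the LSK knockouts listed 0 of 5 there while all controls listed 5. GMP library 178 listed 4 of the 5 with a mean coverage of 20.8 reads and library 179 listed 5 with 43.0, against 61.2 and 89.0 in control libraries 346 and 349. Since reads of the deleted stretch remained in both, these are called the GMP libraries labelled knockout. How far that bears on the GMP differences was not tested.

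Across the family, 694 C positions were listed in any library and 492 in all 10 assigned libraries, with 151 of these in Dok2, 94 in Dok5, 79 in Dok7, 76 in Dok4, 55 in Dok3 and 37 in Dok1. Of the 492, 325 had a mean level under 10% in control LSK, 133 were over 80% and 34 lay between. The level is the percent of reads that carry C. Averaged over its positions in control LSK, Dok5 stood at 70.0% ± 0.367 (SD, n = 3), Dok3 at 67.4% ± 0.857, Dok7 at 36.2% ± 0.452, Dok1 at 17.1% ± 0.358, Dok4 at 5.09% ± 0.0993 and Dok2 at 2.11% ± 0.392. This order was the same in every group, and neighbours in it were separated in each library. These means depend on which positions were listed, and 146 of the 151 Dok2 positions were under 10%.

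**Figure D1:**
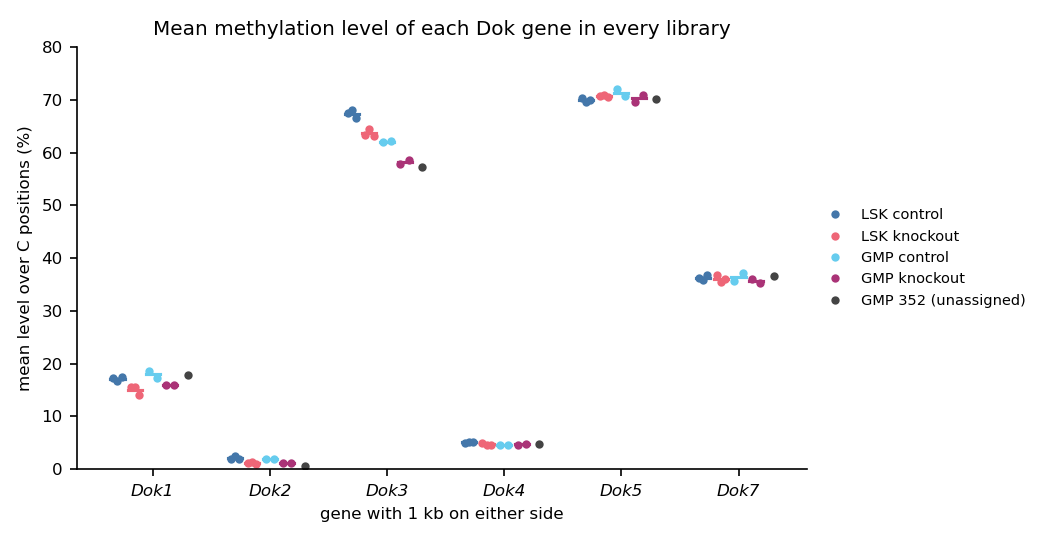
Mean methylation level (% of reads, y axis) of each Dok gene with 1 kb on either side, averaged over the C positions listed in all 10 assigned libraries. Each point is a library, bars are group means, and library 352 is shown apart. The 6 genes keep their order in every group, and the Dok3 points of knockout LSK (63.2 to 64.5) sit below those of control LSK (66.5 to 68.1).

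Dok2 lies at chr14:70765889-70778494 (GRCm38, the build of all coordinates here). Dok2 had 5 tiles, fixed windows of 1000 bp that hold at least 3 C positions in all libraries of a comparison. Of these, 4 were nearly unmethylated. Tiles that start at 70765001, 70766001 and 70767001 were at or below 1.09% in every LSK library and at or below 0.473% in every assigned GMP library. They lie in the stretch of 4976 bp that Dok2 shares with Xpo7 (70662126 to 70770864), a nuclear export receptor gene, or just beside its edge, so these positions belong to both genes. The tile at 70775001, inside Dok2 alone, had 4.65%, 8.37% and 4.73% in control LSK libraries 1326, 1330 and 1331 and 5.12%, 3.94% and 3.88% in knockouts 1327, 1333 and 1334. These groups overlapped. In GMP it had 5.15% and 4.23% in controls and 2.30% and 1.61% in the libraries labelled knockout, lower without overlap by 2.73 points (-2.73, adjusted p = 0.567 by the quasi-binomial test).

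The remaining tile, chr14:70777001-70778000, was the only one of the 5 measured Dok2 tiles with a high level in controls. It was also the place of the difference for which the family was chosen. It lies inside the gene, and its 3 C positions are 827 to 901 bp from the end with the higher coordinate. The gene table gives no strand or exons for Dok2, so neither the nearer end nor exon or intron is named. Control LSK libraries 1326, 1330 and 1331 had levels of 68.3%, 82.2% and 67.3%. Knockout LSK libraries 1327, 1333 and 1334 had 20.6%, 14.1% and 21.7%. Every knockout library was far below every control, and the group means of 72.6% ± 8.34 and 18.8% ± 4.13 (SD, n = 3 each) differ by -53.8 points (percentage points, knockout minus control).

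In GMP, outside the LSK comparison that chose Dok2, the same tile stood at 71.0% and 83.0% in control libraries 346 and 349. The libraries labelled knockout, 178 and 179, had 39.6% and 47.0%. The groups did not overlap, and the difference of -33.7 points was the largest of any Dok tile in GMP. The quasi-binomial test with Benjamini-Hochberg adjustment over all 107150 GMP tiles gave p = 0.00666 and an adjusted p of 0.567, so the tile was not called under the threshold of an adjusted p under 0.05 and 20 points. With this prior the test called none of all GMP tiles, and on simulated data it recovered none of the lowered GMP tiles, so the missing call says nothing about the tile. With a dispersion prior fitted only on tiles of intermediate level (5% to 95%), an alternative, the adjusted p was 0.0422 and the tile was called as lower. Leaving out each library in turn with the first prior kept the sign, with differences from -39.7 to -27.7 points and adjusted p from 0.620 to 0.834.

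The 3 C positions of this tile did not behave alike. At 70777593, on the plus strand, control LSK libraries had 90.4%, 95.04% and 77.4% and knockouts 65.0%, 93.8% and 52.7%, so the groups overlapped through library 1333. At 70777646, on the minus strand and 53 bp further on, the controls had 50.3%, 70.8% and 53.9% and the knockouts 3.85%, 5.08% and 8.37%. At 70777667, another 21 bp on, the controls had 64.2%, 81.7% and 71.3% and the knockouts 10.3%, 2.86% and 10.2%. Both minus-strand positions were thus nearly unmethylated in every knockout LSK library, while the plus-strand position stood at 93.8% in 1333.

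In GMP the minus-strand positions were also the lower ones. At 70777646 the controls had 55.9% and 50.0% and the libraries labelled knockout 17.4% and 26.1%. At 70777667 the values were 70.6% and 85.7% against 34.9% and 51.1%, and at 70777593 they were 92.0% and 100% against 81.8% and 74.1%. All 3 positions were without overlap in GMP, and levels of the libraries labelled knockout lay between those of the LSK groups at both minus-strand positions.

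The minus-strand pair lie within a read length and had nearly equal coverage in every library, so they are not independent measurements. Their mean coverage was 134 and 135 reads in control LSK but 259 and 258 in knockout LSK, whereas the plus-strand position had 128 and 135. In GMP the pair had 55 reads in controls and 87 in the libraries labelled knockout. The part of this coverage difference in the result was not tested. Because levels are weighted by reads, giving each position equal weight changed the LSK difference from -53.8 to -44.8 points and the GMP difference to -28.1 points.

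**Figure D2:**
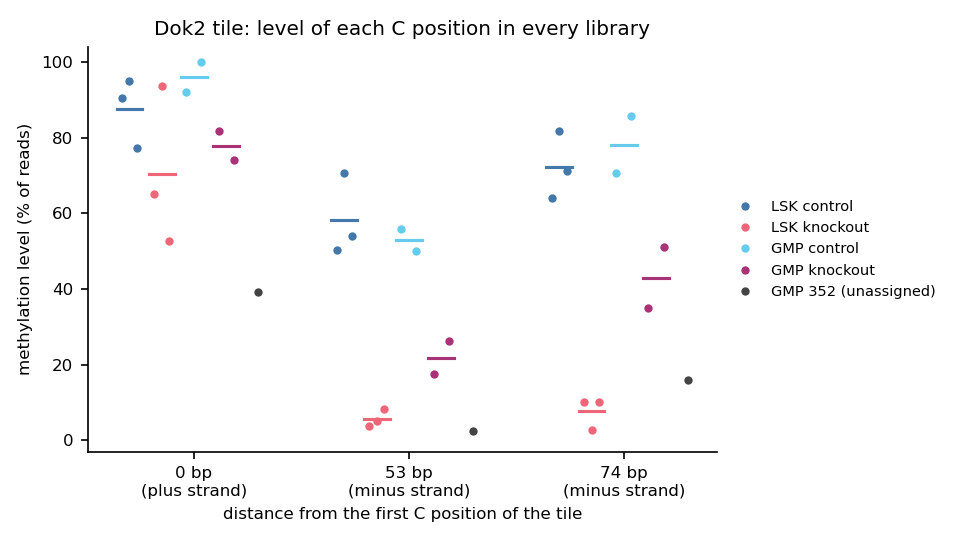
Methylation level (% of reads, y axis) at the 3 C positions of the Dok2 tile against their distance from the first (bp, x axis). Each point is a library, bars are group means, and unassigned library 352 is shown apart. At both minus-strand positions all knockout LSK points lie at or below 10.3%, below all control points.

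Control GMP and control LSK cells were compared to see how the family differs between cell types when Dnmt3a is present, using the same control libraries as above. At the Dok2 tile the control means were 77.0% ± 8.52 (SD, n = 2) in GMP and 72.6% ± 8.34 in LSK and the libraries overlapped, which is given as a description.

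Dok1 and Dok3, the other family members of blood cells, had smaller differences by tile. At single C positions the largest LSK difference was also in Dok2 (-64.6 points at 70777667). In GMP it was in Dok3, with -42.7 points at 55524668 against -35.1 at Dok2 70777667. Dok3 (chr13:55523231-55530345) acts as an inhibitory adaptor in B and myeloid cells. Its start in the RefSeq promoter table is at 55528538 on the minus strand, so lower coordinates lie downstream. Tile chr13:55524001-55525000, with 18 C positions 3643 to 4330 bp downstream of that start, had 82.7%, 82.3% and 82.5% in control LSK libraries 1326, 1330 and 1331. The knockouts 1327, 1333 and 1334 had 71.6%, 77.3% and 66.3%, all below the controls, a difference of -10.8 points. In GMP the controls had 75.2% and 79.2% and the libraries labelled knockout 68.1% and 71.0%, without overlap. That difference of -7.65 points had p = 0.0236 and an adjusted p of 0.567 by the quasi-binomial test and was not called.

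Within this Dok3 tile the largest differences in both cell types were at neighbouring positions, with smaller ones at others. At 55524668 (minus strand, 3870 bp downstream of the start) control LSK libraries had 72.2%, 60.5% and 72.3% and knockouts 17.4%, 52.9% and 19.1%. The GMP controls had 75.5% and 74.1% and the libraries labelled knockout 22.6% and 41.6%. Both comparisons were without overlap, and library 1333 stood far above the other 2 knockouts.

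The next C position of Dok3, at 55524695 and 27 bp away on the plus strand, had 32.1%, 35.7% and 46.5% in control LSK and 12.9%, 18.5% and 5.19% in knockouts. In GMP it had 66.7% and 57.6% in controls, from 15 and 33 reads, and 17.1% and 26.6% in the libraries labelled knockout. The C opposite in the same CpG, at 55524696, had 42.6%, 34.4% and 15.6% in control LSK against 10.3%, 6.25% and 8.84%. In control LSK both C positions of this CpG were below every other position of the tile, in a gene where 36 of the 55 positions were above 80% and 12, near the start, under 10%. Of the 18 positions of the tile, 5 were lower and 1 higher without overlap in LSK, and 6 were lower and 1 higher in GMP.

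**Figure D3:**
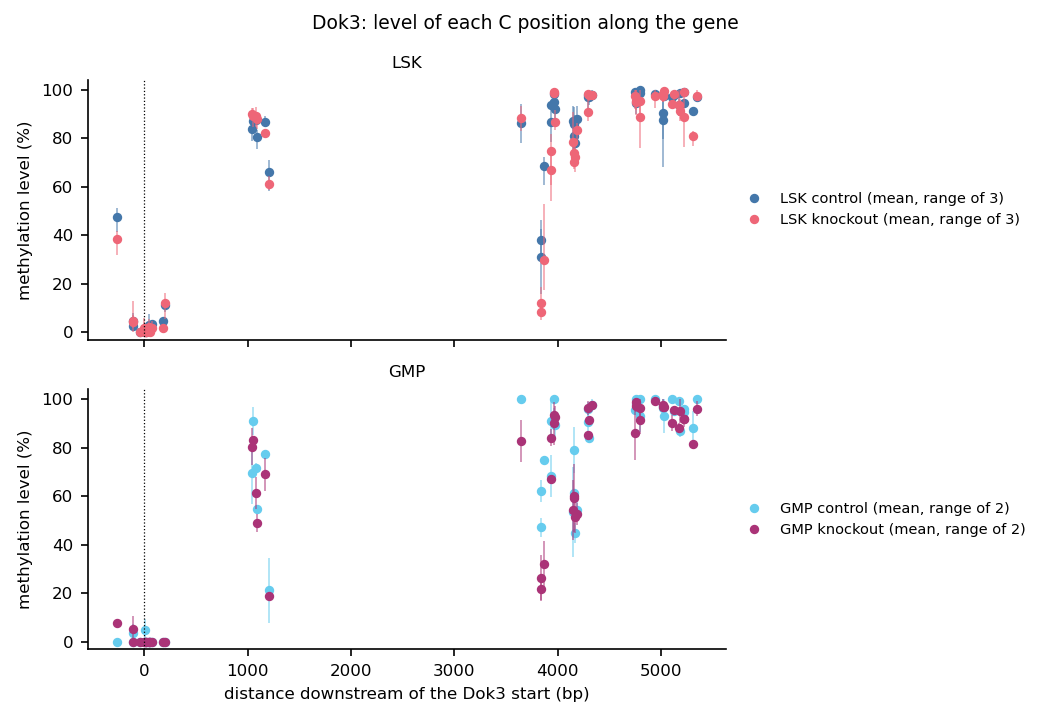
Methylation level (%, y axis) of each Dok3 C position listed in all 10 assigned libraries against its distance downstream of the Dok3 start (bp, x axis, dotted line at the start), for LSK above and GMP below. Points are group means and vertical lines the range of the libraries. Most positions near the start lie near 0, but in LSK the position 266 bp upstream lies far above 0. The knockout points at 3842 to 3870 bp lie below the control points in both cell types.

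Dok3 also held the tile with the largest difference between control GMP and control LSK. Over whole gene spans, weighted by reads, Dok5 (10.1 points) and Dok7 (8.88 points) differed more than Dok3 (4.53 points). With positions weighted equally, Dok3 had the largest difference of these in size (-4.96 points), against 1.44 points in Dok5 and 0.264 in Dok7. Tile chr13:55527001-55528000, inside the gene with 6 C positions 1042 to 1206 bp downstream of the start, had 81.8%, 84.0% and 77.5% in control LSK. Control GMP libraries had 64.8% and 62.7%, both lower, a difference of -17.3 points. The quasi-binomial test over 104839 tiles gave an adjusted p of 0.0423, but the difference is under the 20 points required, so the tile was not called. It was singled out after its values were seen, and leaving out each control library in turn raised the adjusted p to between 0.0959 and 0.243. Across the genotypes this tile overlapped in LSK, with 81.2%, 79.4% and 84.3% in knockouts. The GMP libraries labelled knockout had 60.5% and 56.9%, lower than their controls without overlap by 5.02 points (-5.02, adjusted p = 0.606, quasi-binomial test).

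The tile with the Dok3 start, chr13:55528001-55529000, had 6.04%, 5.67% and 5.87% in control LSK and 1.38% and 0.141% in control GMP, with an adjusted p of 0.0570 by the same test. Within it the C position at 55528804, 266 bp upstream of the start, differed most. It had 41.4%, 49.5% and 51.3% in control LSK, 41.8%, 31.7% and 41.5% in knockout LSK, 0% in both control GMP libraries and 8.14% and 6.98% in the GMP libraries labelled knockout.

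Promoter sequences in the RefSeq table (GRCm38.p6) were found for 2 of the 6 members, Dok3 and Dok7. They are shown because both windows were nearly unmethylated in all groups, as were the listed positions just after each start, while most positions further into both genes were highly methylated. Each run holds the 250 bases before the start, 5′ to 3′ on the gene's strand, with CpGs in capitals where a C position was listed in all 10 assigned libraries. The first is chr13:55528539-55528788 on the minus strand and the second chr5:35056516-35056765 on the plus strand.
Dok3: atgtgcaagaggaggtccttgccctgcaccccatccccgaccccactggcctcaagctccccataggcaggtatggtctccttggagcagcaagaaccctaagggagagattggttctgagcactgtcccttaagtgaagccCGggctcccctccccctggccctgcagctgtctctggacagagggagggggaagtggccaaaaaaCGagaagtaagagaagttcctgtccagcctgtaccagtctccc
Dok7: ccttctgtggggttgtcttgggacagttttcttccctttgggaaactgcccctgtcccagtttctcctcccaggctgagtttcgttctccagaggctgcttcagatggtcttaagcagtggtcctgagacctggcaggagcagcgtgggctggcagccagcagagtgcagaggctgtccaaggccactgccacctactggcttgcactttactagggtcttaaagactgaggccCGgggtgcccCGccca
The Dok3 run holds 3 CG and the Dok7 run 4, against a median of 6 over 32851 such windows, and 2 in each were listed. The window before the second Dok7 start (35057072) holds 30 CG and is not printed, since none of its positions was listed in all 10 libraries. Each run holds 1 CCGG, the MspI motif, which reads the same on both strands and occurs in 47.1% of those windows. Over the listed positions the Dok3 window had 2.88%, 1.38% and 1.97% in control LSK and 1.40%, 6.32% and 0.521% in knockouts 1327, 1333 and 1334. The Dok7 window was at 0% in all control LSK libraries and at 0%, 7.25% and 0.515% in those knockouts. In the 4 assigned GMP libraries the levels were between 0% and 1.32% in Dok3 and between 0% and 0.787% in Dok7.

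Dok1 (chr6:83030932-83033495), the RasGAP-binding adaptor most like Dok2 in role, is a short gene with 3 tiles near 0 and 2 highly methylated ones. Tile chr6:83029001-83030000 lies beside its lower end, inside the neighbouring gene M1ap, and only 2 of its 5 C positions lie within the 1-kb flank. It had 88.4%, 84.1% and 84.7% in control LSK and 84.5%, 77.8% and 69.4% in knockouts, so the groups overlapped. In GMP it had 90.6% and 88.8% in controls and 82.1% and 80.4% in the libraries labelled knockout. The GMP difference of -8.44 points had p = 0.0288 and an adjusted p of 0.567 by the quasi-binomial test. With positions weighted equally the tile difference was -14.4 points in GMP and -2.37 points in LSK. The 2 positions within the flank had GMP differences of -11.3 and 0.514 points.

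A single C position of Dok1 at 83030030 (minus strand, below the lower gene end and inside the neighbour M1ap, 82946908 to 83030309) differed more. It had 73.6%, 76.8% and 80% in control LSK and 47.5%, 73.8% and 34.2% in knockouts 1327, 1333 and 1334. Libraries 1327 and 1334 were well below the controls, and 1333 overlapped with them. In GMP it had 75.5% and 74.8% in controls and 37.6% and 54.3% in the libraries labelled knockout, without overlap.

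Dok5 (chr2:170731807-170879775) was the most covered gene outside the blood members, with 14 tiles. It held the largest difference above 0 of the family. Tile chr2:170791001-170792000, inside the gene with 4 C positions, had 62.3%, 58.9% and 61.1% in control LSK libraries 1326, 1330 and 1331. Knockouts 1327, 1333 and 1334 had 76.6%, 74.2% and 71.5%, all above the controls by a mean of 13.4 points. In GMP the order was the reverse, with 71.9% and 70.6% in controls and 63.4% and 66.4% in the libraries labelled knockout. This GMP difference of -6.35 points had p = 0.124 and an adjusted p of 0.621 by the quasi-binomial test. Whether the difference itself varies between the cell types was not tested, because the LSK values served the choice of the family. Between control cells this Dok5 tile was 10.5 points higher in GMP than in LSK (adjusted p = 0.254, quasi-binomial test).

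At the Dok5 C position 170834509 (minus strand, inside the gene), the direction was the same in both cell types. Control LSK had 65.4%, 62.5% and 72.5% from 26 to 40 reads and knockout LSK 57.8%, 48.0% and 50.0%. Control GMP had 80% and 72.5% and the libraries labelled knockout 47.1% and 54.5%.

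**Figure D4:**
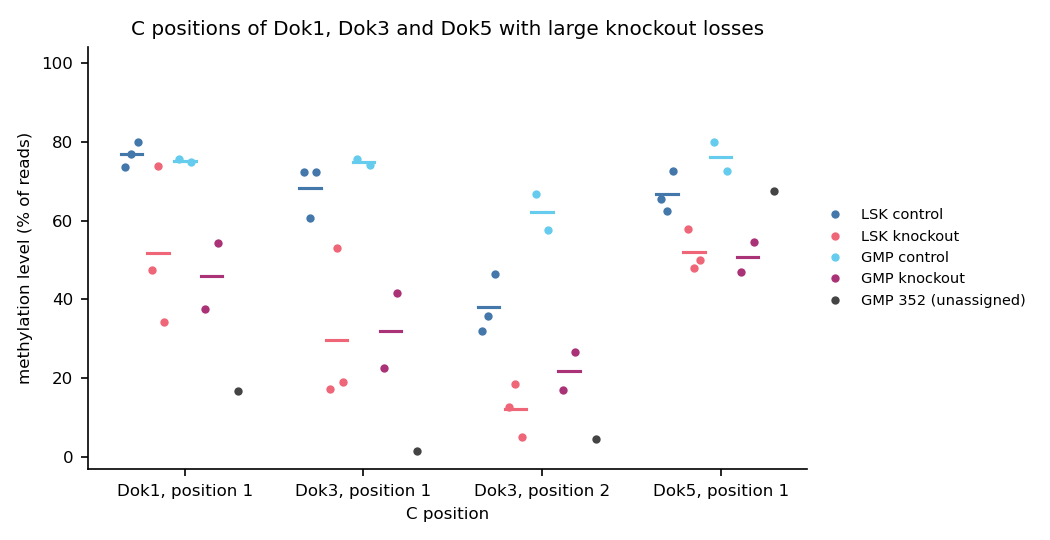
Methylation level (% of reads, y axis) at the C positions of Dok1, Dok3 and Dok5 that were lower by at least 25 points without overlap in LSK or GMP, one column per position. Each point is a library, bars are group means, and library 352 is shown apart. At the Dok1 and the first Dok3 position, 1 knockout LSK point (73.8 and 52.9) lies far above the other 2.

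Dok4 (chr8:94863828-94876312) and Dok7 (chr5:35056571-35087839) had no difference past 10 points in any tile. Dok4 had 3 tiles with low levels and 2 near 96%. Its tile chr8:94875001-94876000 had 10.6%, 10.8% and 8.53% in control LSK and 6.96%, 5.02% and 5.19% in knockouts, lower without overlap by 4.25 points, while in GMP the 6.75% and 9.30% of controls overlapped with 6.25% and 7.91%. The largest GMP difference among the Dok4 tiles was -3.63 points at chr8:94862001-94863000 (adjusted p = 0.765, quasi-binomial test). This tile lies below the lower gene end, inside Polr2c. It touches the 1-kb flank of Dok4, but its measured C positions lie beyond that flank.

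Dok7 was unmethylated at its start and methylated elsewhere. Tiles at 35056001 and 35057001, which hold its 2 starts in the promoter table (35056766 and 35057072), were at or below 1.93% in every assigned library. The tile chr5:35067001-35068000, measured in LSK only, had 86.3%, 90.5% and 90.9% in controls and 95.6%, 96.1% and 94.9% in knockouts, higher without overlap by 6.29 points. In GMP its largest difference was -4.10 points at chr5:35086001-35087000, where the groups overlapped (adjusted p = 0.686).

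Counted over the family in LSK, 6 of 43 tiles were lower and 3 higher without overlap, against 15% and 3.38% of all 107074 tiles. One difference reached 20 points, that of Dok2, against 1.13% of all tiles that were lower and 0.00654% that were higher by as much without overlap. The median difference of the 43 tiles was -0.318 points and that of all tiles -0.381. Nothing is read from these shares, since this comparison chose the family.

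In GMP, 12 of 42 Dok tiles were lower and 1 was higher without overlap, against 25.9% and 11.3% of all tiles. The median difference was -0.799 points, against -0.341 over all tiles. The quasi-binomial test called 0 of the 42, and 5 had an unadjusted p under 0.05. This count says nothing about the Dok tiles, since the same test called 0% of all 107150 tiles, of which 9338 had an unadjusted p under 0.05, and limma on logit levels also called 0. With the intermediate-level prior it called 1 of the 42 as lower, the Dok2 tile, and none as higher, against 0.248% and 0.0271% of all tiles. The share of Dok tiles that were lower in GMP was thus near that of all tiles. Of all tiles, 0.757% were lower and 0.0924% higher by at least 20 points without overlap, as the Dok2 tile was lower. All tiles include those near 0%, which cannot fall by 20 points, and Dok2 was chosen for its large loss in LSK. Nothing is therefore read from these shares about the size of the Dok2 difference.

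**Figure D5:**
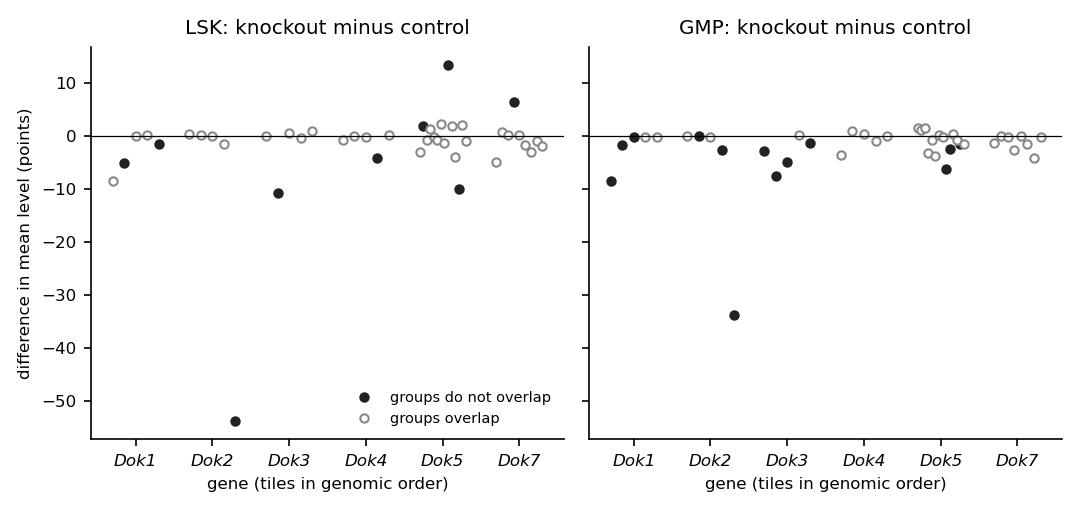
Difference in mean methylation level (percentage points, knockout minus control, y axis) of every Dok tile in genomic order within its gene, for LSK on the left and GMP on the right. Filled points are tiles whose groups do not overlap. The Dok2 tile lies at -53.8 in LSK and -33.7 in GMP, and a Dok5 tile at 13.4 in LSK.

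Between control GMP and control LSK, 8 of 42 Dok tiles were lower and 6 higher in GMP without overlap, against 18.1% and 14% of all 104839 tiles. The quasi-binomial test called 0 of the 42, against 0.772% of all tiles called as lower and 0.113% as higher. Its unadjusted p was under 0.05 in 6 of the 42 and in 14280 of all 104839 tiles. The intermediate-level prior also called 0 of the 42, against 0.891% of all tiles as lower and 0.148% as higher.

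Among single C positions, a rule set after seeing the data counted those lower by at least 25 points without overlap. In LSK 4 of 492 passed it, or 0.813% against 0.699% of all 1293035 positions, and they lie in Dok2 (70777646, 70777667) and Dok3 (55524668, 55524695). In GMP 6 passed, or 1.22% against 0.69%. These were the same 4 with Dok1 83030030 and Dok5 170834509 in addition. None was higher by as much without overlap in either cell type, against 0.0152% of all positions in LSK and 0.164% in GMP. The Dok positions that passed in each cell type lie in only 2 and 4 genes and in part on the same reads.

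Whole gene spans gave no call in GMP for any of the 6 members, which likewise says little, against 0% of 24045 spans called in either direction by the quasi-binomial test (2661 with an unadjusted p under 0.05). The intermediate-level prior also called 0 of the 6, against 0.216% of spans as lower and 0.0291% as higher. Dok3 had 67.3% and 70.5% in controls and 61.9% and 60.5% in the libraries labelled knockout, a difference of -7.69 points (adjusted p = 0.360, same test) that was -3.82 points with positions weighted equally. Dok5 had 71.3% and 69.7% in controls and 66.7% and 65.5% in the libraries labelled knockout (-4.42 points, adjusted p = 0.379, same test), and -0.842 points with positions weighted equally. Between control cells no member's span was called, against 0.787% of 23877 spans called as lower and 1.1% as higher in GMP, nor with the intermediate-level prior, against 0.662% and 0.913%. There the Dok5 span had 62.0%, 62.7% and 58.2% in LSK and 71.7% and 70.5% in GMP, with an adjusted p of 0.0359 and a pooled difference just under the 10 points required, but a difference of only 1.44 points with positions weighted equally.

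The signalling surroundings of the Dok proteins were covered by a list of 34 genes: RasGAP and other tail partners, the Src-family and receptor kinases that phosphorylate Dok proteins, the MuSK synapse genes, other phosphotyrosine-binding adaptors, and the Ras and MAPK output. In LSK the quasi-binomial test called 3 of its 194 tiles as lower and none as higher, or 1.55% against 0.871% and 0.0028% of all tiles. Fyn, a Src-family kinase, fell at chr10:39471001-39472000 from 57.7%, 66.3% and 55.6% in controls to 30.5%, 34.9% and 35.2% in knockouts (adjusted p = 0.00927, same test). Frs3, an adaptor of growth factor receptors with the same kind of phosphotyrosine-binding domain, fell at chr17:47705001-47706000 from 79.4%, 90.04% and 85.8% to 64.2%, 49.7% and 64.1% (adjusted p = 0.0225, same test). The Frs3 tile lies beside the gene, not inside it, and had a mean coverage of 35.1 reads. It did not enter the fit with a coverage minimum of 20, where the list had 2 calls. The third called tile was in Irs2, an adaptor of the insulin receptor. These calls depend on the libraries and the method. The list had 0 calls without control 1326 and 1 without control 1330, control 1331 or knockout 1334. Without knockout 1327 or 1333 it had 4. Calls as lower over all tiles went from 933 to 459, 384, 454 and 513 without 1326, 1330, 1331 and 1334. They were 1290 and 874 without 1327 and 1333. By limma on logit levels the list and all LSK tiles had 0 calls. With 1 library left out, the differences stayed from -28.5 to -23.1 points in Fyn and from -28.6 to -20.9 in Frs3. In GMP 0 of 195 tiles of the list were called by either prior. Of all 107150 GMP tiles the first prior called 0%, and the intermediate-level prior 0.248% as lower and 0.0271% as higher. The unadjusted p of the quasi-binomial test was under 0.05 in 15 of the 195 and in 9338 of all GMP tiles. Between control cells 1 of 193 was called, or 0.518% against the 0.772% of all tiles, in Csk, the kinase that inhibits Src-family members, with 90.1%, 91.5% and 96.4% in LSK and 64.6% and 67.7% in GMP (chr9:57628001-57629000, adjusted p = 0.00546, same test).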

How the data were processed

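Each deposited table gives, per CpG strand, the read coverage as a count and the C and T shares as percent, per the file headers. Positions under 10 reads are not listed, which does not make them a 0. The submitters' processing notes name Bismark, mm10 and GRCm38, and no version or role. C and T reads were recovered as coverage times percent, and the 2 strands of a CpG were kept as separate positions. Single-end reads of 50 bp from MspI fragments of 150 to 400 bp carry no molecular identifiers, so Wilson intervals cover counting error only.

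Reads were summed over the positions listed in all libraries of a comparison, per 1000-bp tile (at least 3 positions) and per gene with 1 kb on either side (at least 5). A tile counted for a gene if it touched the gene or its 1-kb flank. All positions of such a tile were used, even those beyond the flank. The measured positions of Dok3 tile chr13:55531001-55532000 and Dok4 tile chr8:94862001-94863000 all lie beyond it. Both are among the counted Dok tiles. Groups were compared by a quasi-binomial logistic model with an F test, with dispersions floored at 1 and moderated along log coverage by squeezeVar of limma 3.58.1 in R 4.3.3, and Benjamini-Hochberg adjustment over all features. A call needed an adjusted p under 0.05 and a pooled level apart by 20 points or more for tiles, 10 for spans. For GMP tiles the prior had 1.92 degrees of freedom over all tiles and 16.7 over those of intermediate level (5% to 95%). Printed differences are those of group means. On simulated data the prior over all tiles recovered none of the lowered GMP tiles. The intermediate-level prior recovered most of those with larger losses, so in GMP the choice of prior decided the calls. The simulated reads had the same fixed spread between libraries in all tiles, which was not fitted to any Dok tile.

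The members, lists and tests were chosen with earlier results of these data known. Named tiles are all those of Dok2, the tile of each member with the largest difference in LSK or GMP, tiles with a gene start, and any called. Positions were named by the 25-point rule. Of the list, the 2 tiles with the largest called differences were named in each direction. Gene spans come from a RefSeq table of GRCm38.p6 without strand. Each 5-Mb window around a member held at most 7 positions specific to either group. The minimum for a group-specific set was 10 positions, so no window held such a set.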

Additional observations from a re-analysis of the deposited data

Results flagged for a closer look

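The Dok5 tile chr2:170791001-170792000 moved in opposite directions in the 2 cell types. It was 13.4 points higher in knockout than in control LSK, with all 3 knockouts above all 3 controls, and 6.35 points lower (-6.35) in the GMP libraries labelled knockout, both of which lay below both controls. The difference between the cell types was not tested, and the GMP difference alone had an adjusted p of 0.621 by the quasi-binomial test. At the 4 C positions of the tile, 2 were higher and 0 lower without overlap in LSK, and 1 was lower and 0 higher in GMP. Leaving out each library in turn kept both signs, from 12.1 to 14.6 points in LSK and from -7.83 to -4.88 points in GMP.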

How the results depend on the processing

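No paired analysis was possible because the library numbers are not shared between groups. With the intermediate-level prior, calls in GMP went from 0 to 295 tiles and from 0 to 59 spans; all other settings, leave-one-out included (0 to 0), gave 0 of either. For control GMP against control LSK, 927 tiles were called, 438 with at least 5 C positions per tile, 6 by limma on logit levels, and 280 to 1014 with 1 library left out (282 without 1330, 294 without 1331, 314 without 346, 280 without 349). There, 451 spans were called, 48 by limma on logit levels, and 0 to 773 with 1 library left out (0 without 1331, 346 or 349, 701 without 1326, 773 without 1330). Dok tiles lower by 20 points in LSK went from 1 to 0 with at least 5 positions per tile, since the Dok2 tile has 3, and stayed at 1 to 1 with any library left out. Calls of the 34-gene list in LSK went from 3 to 1 with at least 5 positions, and to 0 to 4 with 1 library left out. They went to 0 by limma on logit levels, which also called 0 of all LSK tiles. Equal weighting of positions reversed the Dok7 span in GMP (5.88 to -0.936 points) and the Dok3 span between control cells (4.53 to -4.96 points). Beyond the stated construction the cause was not tested. The counts of Dok positions past 25 points were 3 to 6 in LSK and 5 to 8 in GMP with 1 library left out. In GMP the choice of prior decided the calls. Coverage at the named positions in GMP was 15 to 147 reads.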

Other observations

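GMP library 352, which the labels put in no group, listed all 3 C positions of the Dok2 tile. Its level over the tile was 18.1% (95% Wilson interval 13.7% to 23.6%, 232 reads). By position it had 39.1% at 70777593, 2.47% at 70777646 and 15.9% at 70777667. At the Dok3 position 55524668 it had 1.67% (0.568% to 4.78%, 180 reads), at Dok3 55524695 4.69% and at Dok1 83030030 16.9% (11.6% to 23.9%). Its level over the Dok3 tile that starts at 55524001 was 49.5% (46.9% to 52.1%). Over the Dok5 tile that starts at 170791001 it had 73.1% (68.2% to 77.5%), and over the Dok4 tile that starts at 94862001 83.0% (79.9% to 85.8%). Of 42 Dok tiles its level was below all 4 assigned GMP libraries in 13, above all in 10 and within their range in 19. It listed 0 of the 5 C positions of the Dnmt3a stretch.

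At the Dok7 C position 35081019 (plus strand), knockout LSK library 1333 had 3.23% where the other assigned libraries had 43.7% to 79.7%. The value rests on 31 reads and was singled out after it was seen.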
